A study of Mus musculus with 6 samples.

Results

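The 6 enzymes that carry squalene to zymosterol, the middle stretch of cholesterol synthesis, were followed by name through livers and adrenal glands of sterol-fed mice: Sqle, Lss, Cyp51, Msmo1, Nsdhl and Hsd17b7. All 6 were found among the 33639 gene symbols of the deposited tables. Every mouse lacked Abcg8 throughout the body. Its product is one chain of a pump that sends plant sterols out of liver and gut cells. Per the labels all mice were male, and up to weaning their food was low in sterols and held 0.005% ezetimibe, a drug that blocks sterol absorption. They then ate a low sitosterol, high sitosterol, ergosterol or stigmasterol diet for 12 weeks, which gave 4 liver libraries (1 per diet) and 2 adrenal libraries (low and high sitosterol), each from 1 mouse. Strain and the sterol content of each diet are not given in the sources used here, so that diets cannot be matched by dose. The question of the study was what feeding on such non-cholesterol sterols does to liver transcripts.

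Cholesterol synthesis turns acetyl-CoA into squalene through mevalonate, and the enzymes described here take over at squalene. Squalene epoxidase (Sqle) adds oxygen and is a control point of the pathway. Lanosterol synthase (Lss) folds the epoxide into the first sterol, lanosterol, and lanosterol demethylase (Cyp51), a cytochrome P450, removes a methyl group from it. Msmo1, Nsdhl and Hsd17b7 then act in turn to take the remaining extra methyl groups off, as an oxidase, a decarboxylating dehydrogenase and a ketone reductase, and leave zymosterol. In liver these genes are known targets of SREBP2, a transcription factor held back in the endoplasmic reticulum when sterols are abundant, and SQLE protein is also broken down when cholesterol is high.

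The promoter letters of the members are shown because SREBP2 is known to act there together with the factors NF-Y and Sp1. RefSeq windows (build GRCm38.p6, 250 bases before to 50 after the gene's start) were matched by symbol for 5 of the 6 members, all but Sqle. The motifs searched on both strands were TCACNCCAC and ATCACNNCA, forms of the sterol regulatory element, CCAAT for NF-Y, GGGCGG for Sp1 and the E-box CACGTG. The 250 bases before the start are printed 5′ to 3′ on the gene's strand, and capitals mark the letters of a motif or of its reverse complement. They lie at chr10:76531355-76531604 (plus strand), chr5:4104698-4104947 (minus), chr8:64733579-64733828 (minus), chrX:72918271-72918520 (plus) and chr1:169969206-169969455 (minus). The start meant here is that of the RefSeq window, which differs from the GENCODE gene positions given below. Except for Nsdhl, the printed bases reach into the GENCODE span of the gene, and for Msmo1 (minus strand, span up to 64733792) most of them lie inside it.
Lss: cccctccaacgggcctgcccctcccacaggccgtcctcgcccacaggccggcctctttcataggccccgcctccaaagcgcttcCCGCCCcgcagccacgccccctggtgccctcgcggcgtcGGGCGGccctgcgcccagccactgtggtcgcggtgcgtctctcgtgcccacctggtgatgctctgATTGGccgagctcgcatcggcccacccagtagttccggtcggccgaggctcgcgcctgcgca
Cyp51: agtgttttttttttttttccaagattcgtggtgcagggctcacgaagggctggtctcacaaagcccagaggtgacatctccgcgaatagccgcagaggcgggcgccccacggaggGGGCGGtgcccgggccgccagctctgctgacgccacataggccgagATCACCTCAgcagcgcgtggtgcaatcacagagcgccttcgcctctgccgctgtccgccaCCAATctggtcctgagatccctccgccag
Msmo1: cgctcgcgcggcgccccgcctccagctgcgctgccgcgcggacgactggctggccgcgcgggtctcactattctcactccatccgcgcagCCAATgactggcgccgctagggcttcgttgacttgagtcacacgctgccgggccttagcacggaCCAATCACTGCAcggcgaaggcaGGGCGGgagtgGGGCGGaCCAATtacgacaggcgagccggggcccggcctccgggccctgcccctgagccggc
Nsdhl: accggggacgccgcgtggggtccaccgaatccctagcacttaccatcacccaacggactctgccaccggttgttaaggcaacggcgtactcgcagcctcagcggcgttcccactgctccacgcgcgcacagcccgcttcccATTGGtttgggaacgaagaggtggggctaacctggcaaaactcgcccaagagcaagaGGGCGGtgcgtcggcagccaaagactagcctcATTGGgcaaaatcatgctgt
Hsd17b7: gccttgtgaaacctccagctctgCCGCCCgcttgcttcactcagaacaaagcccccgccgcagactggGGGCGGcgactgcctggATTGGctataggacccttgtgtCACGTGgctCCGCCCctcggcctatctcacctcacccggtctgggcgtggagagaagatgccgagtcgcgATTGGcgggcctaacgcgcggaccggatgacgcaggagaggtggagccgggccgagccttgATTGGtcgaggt

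All 5 windows held both CCAAT and GGGCGG, which stood together in 12.8% of 32851 RefSeq windows of the same length. The form ATCACNNCA, found in 2.77% of all windows, was present in 2 of the 5. Cyp51 held it as ATCACCTCA from 89 to 81 bases before the start, with CCAAT from 29 to 25 bases before it. Msmo1 held ATCACTGCA from 93 to 85 bases before the RefSeq start, where its first 2 letters also belong to a CCAAT. This match lies inside the GENCODE span of Msmo1. TCACNCCAC, in 1.24% of all windows, was in none of the 5. Of the enzymes before squalene 6 of 8 had a window, and of these 5 held CCAAT, 5 GGGCGG, 1 TCACNCCAC and 0 ATCACNNCA. Msmo1 and Hsd17b7 each carried 3 copies of CCAAT in the printed bases, Nsdhl 2, and Hsd17b7 was the member with an E-box (7.15% of all windows). These windows were rich in G and C, at 61.6% to 73.6% of the printed bases against a median of 52.4% over all windows. A match describes letters and is not a binding site.

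Library totals ran from 41546507 to 50573364 rounded counts. Levels were scaled to effective library totals (TMM factors from edgeR, computed within each tissue) and are called scaled CPM, while TPM, a share of transcripts corrected for length, is used to compare one gene with another. The TMM factors were 0.83 for the low sitosterol, 0.95 for the high sitosterol, 0.93 for the ergosterol and 1.35 for the stigmasterol liver. Livers held all 12 hepatocyte identity genes at 1 TPM or more and adrenals all 8 adrenal cortex genes. Each adrenal also held 7 of the 12 hepatocyte genes at that level, but their sums were 574 and 321 TPM against 94591 or more in the livers. The low sitosterol liver held 5 of the 8 adrenal cortex genes at 1 TPM or more. In the low sitosterol liver the adrenal cortex genes summed to 46.3 TPM, or 0.11% of the low sitosterol adrenal, against 1.90 to 6.45 TPM in the other livers. That share of adrenal RNA would bring 0.135 TPM to Msmo1, which stood at 35.0 TPM there, and less to the other members. The Y-linked genes Eif2s3y and Ddx3y together had 2490 to 3881 counts in the livers but 3 and 5 in the adrenals, which goes against the male label of the adrenals. They are called here by tissue and diet only. Abcg8 counts ran from 51 to 788 in the livers, and since the labels do not say which part of the gene was deleted, they do not check the knockout. Each group is a single library, so differences have neither a replicate check nor a test, and p-values are not given. Intervals are exact (95%, conditional binomial) and cover counting error only. A gene is called higher or lower in one library when the ratio is at least 2-fold and the interval leaves out equality.

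Per length, Msmo1 was the most abundant member in all 6 libraries and Hsd17b7 the least in 5 of them. In the low sitosterol liver the order was Msmo1 (35.0 TPM), Nsdhl (31.9), Cyp51 (23.7), Lss (13.9), Sqle (13.3) and Hsd17b7 (4.998). In the ergosterol liver Sqle, at 5.995 TPM, stood below Hsd17b7 at 6.88, the one library where Sqle was last. The 6 members together summed to 123 TPM in the low sitosterol liver, 96.3 in the ergosterol, 76.6 in the high sitosterol and 60.5 in the stigmasterol liver. In the adrenals they summed to 227 TPM on low and 142 on high sitosterol, and Msmo1 alone made up 54.1% and 56.3% of that, against 28.5% to 40.7% in the livers.

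**Figure D1:**
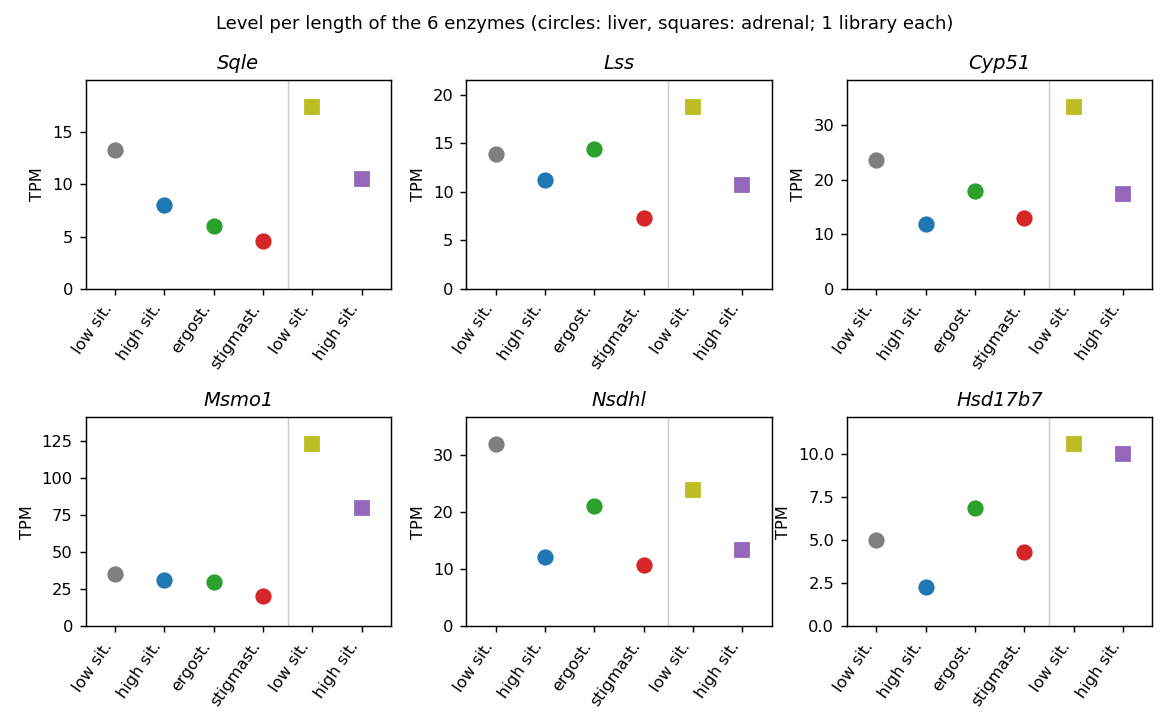
Level of each of the 6 enzymes in TPM (vertical axis, from 0) in the 4 liver libraries (circles) and 2 adrenal libraries (squares), 1 library per point and no error bar. Sqle goes from 13.3 TPM in the low sitosterol liver to 4.54 in the stigmasterol liver, and Msmo1 stands far higher in the adrenals (123 and 79.9) than in any liver. The median TPM of genes above 0 is also higher in the adrenals (5.51 and 4.96) than in the livers (1.45 to 3.13).

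Sqle (GRCm38 chromosome 15, 59315077 to 59331192, plus strand) stood at 40.9 scaled CPM in the low sitosterol, 20.3 in the high sitosterol, 13.98 in the ergosterol and 7.35 in the stigmasterol liver. Every pair of livers differed beyond counting error. Against low sitosterol it was 2.01-fold lower on high sitosterol (log2 -1.01, interval -1.12 to -0.89), just past the 2-fold limit (-0.99 with DESeq2 size factors, -0.98 with upper quartile and -0.81 on library totals), 2.92-fold lower on ergosterol (-1.55, -1.68 to -1.41) and 5.56-fold lower on stigmasterol (-2.47, -2.62 to -2.33). In the adrenals it was at 30.5 and 18.9 scaled CPM, a log2 ratio of -0.69 (-0.82 to -0.57).

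Lss (chromosome 10, 76531588 to 76557138, plus strand) stood at 36.1 scaled CPM on low sitosterol, 26.1 on high sitosterol, 33.6 on ergosterol and 15.0 on stigmasterol in liver. The low sitosterol and ergosterol livers were within counting error of each other (-0.10, -0.21 to 0.00), and the stigmasterol liver was 2.40-fold lower than the low sitosterol liver (-1.26, -1.38 to -1.15). In the adrenals it went from 42.6 on low to 26.1 scaled CPM on high sitosterol (-0.71, -0.81 to -0.60). Lss counts and TPM do not move alike. The length the authors' tables imply for its transcripts (counts per TPM, with the median gene set to 1) was 1.51 times that of the low sitosterol liver in the stigmasterol liver, 1.19 times in the ergosterol and 1.08 times in the high sitosterol liver. Of genes with more than 50 counts in both of these livers, 1.7% were as far from 1 in the stigmasterol liver. GENCODE M21 lists 8 transcripts for Lss, and which of them carried the counts is not given in gene tables.

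Cyp51 (chromosome 5, 4081145 to 4104746, minus strand) stood at 106 scaled CPM in the low sitosterol, 43.7 in the high sitosterol, 58.7 in the ergosterol and 30.6 in the stigmasterol liver. All 4 levels differed from each other beyond counting error. It was 2.42-fold lower on high sitosterol (-1.27, -1.35 to -1.20) and 3.45-fold lower on stigmasterol (-1.79, -1.86 to -1.71). On ergosterol its log2 ratio was -0.85 (-0.92 to -0.78), short of the 2-fold limit. By TPM, where the stigmasterol liver (12.99) stood slightly above the high sitosterol liver (11.8), the order of those livers is turned. In the adrenals Cyp51 was at 59.1 and 33.5 scaled CPM (-0.82, -0.91 to -0.73), the largest adrenal difference among the members.

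Msmo1 (chromosome 8, 64718139 to 64733792, minus strand) stood at 58.8 scaled CPM on low sitosterol, 44.9 on high sitosterol, 42.5 on ergosterol and 18.5 on stigmasterol in liver. The stigmasterol liver stood lowest, 3.18-fold below low sitosterol (-1.67, -1.77 to -1.57). High sitosterol (-0.39, -0.48 to -0.30) and ergosterol (-0.47, -0.56 to -0.38) were each less than 1.5-fold below it and could not be told from each other by counting error (ergosterol against high sitosterol -0.08, -0.17 to 0.01). The adrenals held 124 and 85.0 scaled CPM (-0.55, -0.61 to -0.49). By TPM the low sitosterol adrenal was 3.503-fold above the liver of the same diet, where the median TPM of genes above 0 was 5.51 in adrenal and 1.45 in liver.

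Nsdhl (chromosome X, 72918557 to 72958514, plus strand) stood at 75.2 scaled CPM in the low sitosterol, 23.6 in the high sitosterol, 37.7 in the ergosterol and 13.4 in the stigmasterol liver. The low sitosterol liver was thus above all others, by 3.18-fold over high sitosterol (-1.67, -1.77 to -1.57), by 1.99-fold over ergosterol (-0.99, -1.08 to -0.91), just short of the limit (-1.04 with upper quartile scaling), and by 5.6-fold over stigmasterol (-2.49, -2.59 to -2.38). In the adrenals it was at 32.0 and 18.4 scaled CPM (-0.80, -0.93 to -0.68). It was the one member with less TPM in the low sitosterol adrenal than in the liver of that diet (0.75 of it). The part of the X-linked position of Nsdhl in that order, given the Y-linked counts of the adrenals, was not tested.

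Hsd17b7 (chromosome 1, 169949535 to 169969241, minus strand), which in mice also turns estrone into estradiol, stood at 26.4 scaled CPM in the low sitosterol, 10.04 in the high sitosterol, 27.2 in the ergosterol and 12.0 in the stigmasterol liver. On this scale the livers fell into a higher pair, low sitosterol and ergosterol, which did not differ beyond counting error (0.04, -0.08 to 0.16), and a lower pair. High sitosterol was 2.63-fold (-1.39, -1.56 to -1.24) and stigmasterol 2.19-fold (-1.13, -1.27 to -1.001) below low sitosterol. By TPM the stigmasterol liver (4.34) lay nearer to the low sitosterol liver (4.998) than to the high sitosterol liver (2.29). It was the only member lower in the high sitosterol than in the stigmasterol liver by scaled CPM (stigmasterol against high sitosterol 0.26, 0.10 to 0.43). Its adrenal levels, 27.7 and 26.1 scaled CPM, did not differ beyond counting error (-0.08, -0.20 to 0.03).

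**Figure D2:**
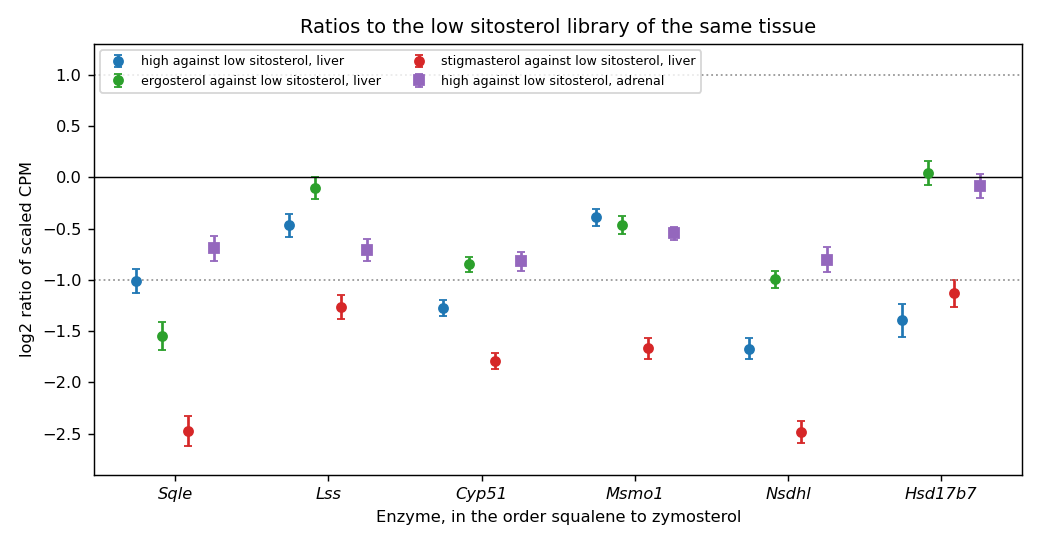
Log2 ratio of scaled CPM (vertical axis) to the low sitosterol library of the same tissue for each enzyme, with exact 95% counting intervals as bars and 1 library per group. Dotted lines mark a 2-fold difference. All 6 stigmasterol points lie below the lower line, while the ergosterol points spread from -1.55 for Sqle to 0.04 for Hsd17b7.

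Against low sitosterol, 4 of 6 members were lower in the high sitosterol liver (Sqle, Cyp51, Nsdhl and Hsd17b7), where 4.3% of 13378 genes were and 8.69% were higher. Sqle passed the limit with TMM but with none of the 6 other scalings run. With log2(TPM + 0.1) only Nsdhl (-1.39) and Hsd17b7 (-1.09) were still lower, where 2.24% of genes were. The median log2 ratio of the members was -1.14 against -0.05 over all genes. In the ergosterol liver Sqle alone was lower, 1 of 6 against 5.82% of genes (6.05% were higher), with a median of -0.66 against 0.02. In the stigmasterol liver 6 of 6 were lower against 7.78% of genes (21.7% were higher), with a median of -1.73 against 0.08. No member was higher in these 3 comparisons, which share the low sitosterol liver, and whatever was particular to that 1 liver enters each of them. In bulk tissue, fewer cells of a type and less RNA per cell cannot be told apart.

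The count in the stigmasterol liver rests on the scaling. Without TMM, on library totals, Sqle (-1.78), Nsdhl (-1.79) and Cyp51 (-1.09) were still lower, and Msmo1 (-0.97), Lss (-0.57) and Hsd17b7 (-0.44) were not. There 3% of genes were lower, and the median of all genes moved up by 0.69. The 12 hepatocyte identity genes had a median log2 ratio of -0.86 in this comparison, with 5 lower. Measured relative to that median, Sqle (-1.61) and Nsdhl (-1.62) were lower, as were 2.48% of genes, and Hsd17b7 was at -0.27. Markers of other cells moved with the result: 7 of 7 cholangiocyte genes were higher in the stigmasterol liver (summed level 1189 TPM, of which Spp1 gave 1117, against 33.0 to 51.0 in the other livers, with 0 of the 7 at 0 counts). So were 6 of 8 stellate cell and matrix genes (327 TPM against 18.7 to 25.5) and 6 of 6 proliferation genes (127 against 1.90 to 13.2). Of the macrophage genes 4 of 10 were higher there and 3 lower (582 TPM), and of 8 lipid-associated macrophage genes, a list that also holds Spp1, 6 were higher and 1 lower (median log2 ratio 4.201, summed level 1588 TPM against 329 to 887 in the other livers). All 5 analysed T and B cell genes of 8 listed were higher as well (33.4 TPM against 2.29 to 5.37). In the high sitosterol liver 8 of 10 macrophage genes were higher and 1 lower (589 TPM against 157 in the low sitosterol liver). Of 8 lipid-associated macrophage genes 5 were higher there and 1 lower (median 3.04, summed level 554 TPM against 887). Fabp5 alone gave 372 of the 554 TPM on high and 798 of the 887 TPM on low sitosterol. The proliferation genes were higher in 6 of 6, and the hepatocyte identity median was -0.26. In the ergosterol liver 3 of 10 macrophage genes were higher (306 TPM), and 4 of 8 lipid-associated macrophage genes were higher and 1 lower (median 0.75), with a hepatocyte identity median of -0.27. Their part in the members' ratios was not tested.

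**Figure D3:**
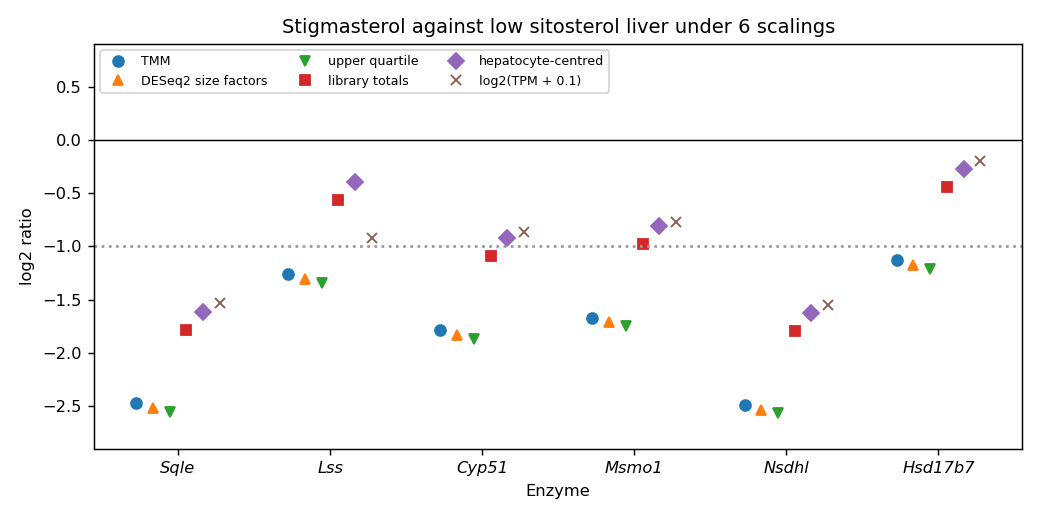
Log2 ratio of the stigmasterol to the low sitosterol liver (vertical axis) for each enzyme under 6 ways of scaling, 1 library per group and no error bars. The dotted line marks a 2-fold lower level. Sqle and Nsdhl lie below it under all 6, whereas Hsd17b7 ranges from -1.21 to -0.20.

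The members did not move as a block, and the ratio of one member to another within a library is free of scaling between libraries. From the low sitosterol to the ergosterol liver Sqle fell behind Hsd17b7 by 3.01-fold (log2 -1.59, -1.77 to -1.41) and behind Lss by 2.72-fold (-1.44, -1.61 to -1.27). The same shift against Hsd17b7 was 2.54-fold in the stigmasterol liver (-1.34, -1.54 to -1.14). From low to high sitosterol it went the other way, and Sqle gained 1.31-fold on Hsd17b7 (0.39, 0.19 to 0.59). The count ratio of Sqle to Lss also carries the longer length implied for Lss in the ergosterol liver (1.185 times). By TPM Sqle went there from 13.3 to 5.995 and Lss from 13.9 to 14.4. The ratio of Sqle to Nsdhl shifted by 0.01 (-0.17 to 0.19) between the low sitosterol and stigmasterol livers, within counting error. In the adrenals the members stayed closer together: the median size of the 15 pairwise shifts was 0.16, against 0.62, 0.70 and 0.69 in the high sitosterol, ergosterol and stigmasterol livers. The 5 largest adrenal shifts all involved Hsd17b7.

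The sterols were also set against each other, as libraries on diets of unknown dose. Stigmasterol differs from sitosterol by a double bond in the side chain, and ergosterol, the main sterol of fungi, carries a methyl in place of the ethyl group there and further double bonds. Between the stigmasterol and high sitosterol livers 2 of 6 members were lower on stigmasterol (5.59% of genes were, and 16.5% were higher), Sqle by 2.77-fold (-1.47, -1.63 to -1.31) and Msmo1 by 2.42-fold (-1.28, -1.38 to -1.18). On library totals neither passed the limit, where 2.59% of genes were lower. Between the ergosterol and high sitosterol livers Hsd17b7 was 2.71-fold higher on ergosterol (1.44, 1.28 to 1.59), 1 of 6 against 6.18% of genes (8.96% were lower). Lss (0.36), Cyp51 (0.43) and Nsdhl (0.67) were above equality and Sqle (-0.54) below it, all less than 2-fold. Msmo1 (-0.08) was within counting error. Between the ergosterol and stigmasterol livers 4 of 6 were higher on ergosterol against 7.09% of genes (19.4% were lower), led by Nsdhl (1.49, 1.37 to 1.61), and Sqle (0.93) and Cyp51 (0.94) were just under the limit. None of the 6 was past it on library totals, where 3.18% of genes were higher.

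Along the pathway, enzymes before squalene had 4 of 8 lower and 0 higher in the high sitosterol, 1 of 8 lower in the ergosterol and 4 of 8 lower in the stigmasterol liver. Of all genes 4.3%, 5.82% and 7.78% were lower in these comparisons. On library totals the counts were 2, 1 and 2, where 3.13%, 4.56% and 3% of genes were lower. Mvd, which makes isopentenyl diphosphate, stood at 26.3 scaled CPM on low sitosterol, 8.94 on high sitosterol, 9.41 on ergosterol and 3.07 on stigmasterol. Its low sitosterol level was thus above all others, and like Sqle it was lower in all 3 comparisons (-1.56, -1.48 and -3.10). On high sitosterol, however, Sqle passed the limit with TMM only, whereas Mvd also did on library totals (-1.36). After lanosterol demethylation, the reductase Tm7sf2 was at -1.10, -0.50 and -2.76 in the same order, while its partner in the same step, Lbr, was at 0.63 on stigmasterol (1.33 and called higher on library totals). Of the enzymes listed after zymosterol or as reductases of that step, 1 of 5, 0 of 5 and 3 of 5 were lower, and on library totals 0, 0 and 1. The same shares of all genes apply to these counts.

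**Figure D4:**
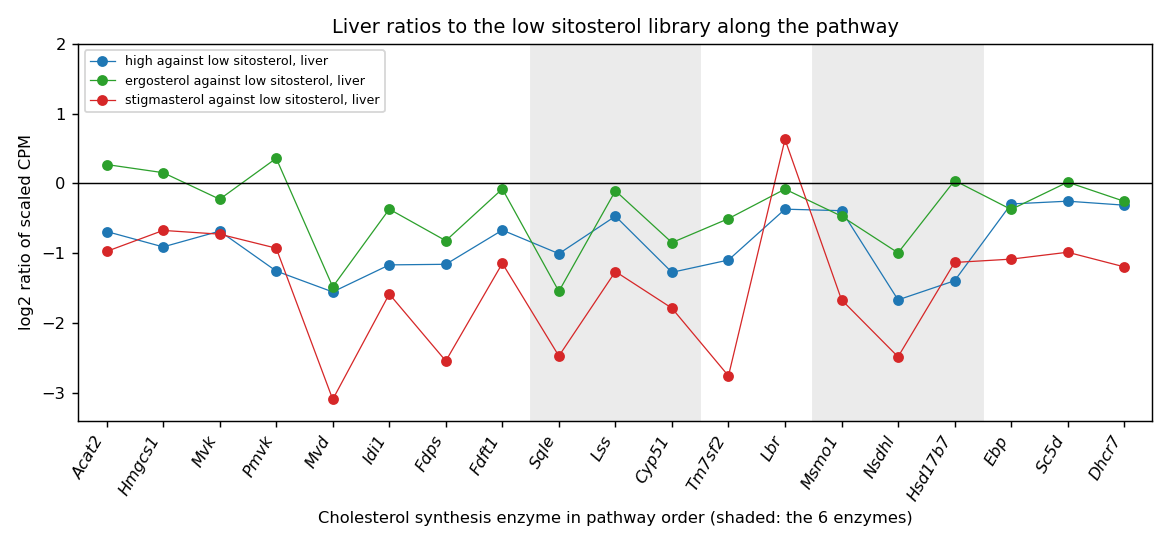
Log2 ratio of scaled CPM to the low sitosterol liver (vertical axis) for 19 enzymes in the order of cholesterol synthesis (horizontal axis), for the high sitosterol, ergosterol and stigmasterol livers, 1 library each; lines only guide the eye. The 6 enzymes are shaded. Mvd, at -1.56, -1.48 and -3.10, and Sqle, at -1.01, -1.55 and -2.47, are past the 2-fold limit on all 3 diets with TMM. On high sitosterol Sqle is past it with none of the 6 other scalings. Nsdhl, at -1.67, -0.99 and -2.49, is also low on all 3 but just short of the limit on ergosterol (-1.04 with upper quartile scaling).

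Partners and control genes of the members were counted from lists as well. Por, the reductase that feeds electrons to Sqle and Cyp51, was at 0.33, -0.49 and -0.14 on high sitosterol, ergosterol and stigmasterol, with 0 calls. The direction on stigmasterol rests on the scaling, as Por was at 130 TPM on low sitosterol and 224 TPM on stigmasterol. Of the 9 partners and turnover genes, Cyb5r3, which reduces cytochrome b5 for Msmo1, was lower on stigmasterol (-1.59, -1.62 to -1.57), as was Erg28 (-1.05), the scaffold that in yeast holds the demethylating enzymes together, listed here as 0610007P14Rik. Neither was called on library totals (-0.90 and -0.35). Cyb5b, a cytochrome b5, was higher on ergosterol (1.09). March6, the ubiquitin ligase of SQLE protein, was at -0.49, 0.20 and -0.35. By TPM its direction on stigmasterol is turned, with 12.8 on low sitosterol and 19.0 on stigmasterol. Srebf2 itself, which encodes SREBP2, was at -0.12, 0.43 and 0.19. By TPM Srebf2 was lowest on low sitosterol (5.16), then 5.72 on high sitosterol, 9.19 on ergosterol and 11.2 on stigmasterol. Insig1, which retains SREBP2 and is one of its targets, was at 0.43, -0.07 and -1.95 and was called lower on stigmasterol, and Stard4, a cholesterol carrier, was at -1.20, -0.82 and -2.36. Of 10 feedback and uptake genes listed 9 were analysed in liver, and 1, 0 and 4 of them were lower (1, 0 and 2 on library totals). Over all genes 4.3%, 5.82% and 7.78% were lower (3.13%, 4.56% and 3% on library totals).

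In the adrenals no member passed the 2-fold limit between high and low sitosterol, where 2.31% of 14224 genes were lower and 3.83% higher. All 6 log2 ratios were below 0, with a median of -0.70 against 0.00 over all genes, and 5 of 6 intervals left out equality. At a limit of 1.5-fold, 4 of 6 were lower (Sqle, Lss, Cyp51 and Nsdhl), where 7.16% of genes were. Of the enzymes before squalene 1 of 8 was lower, Fdps (-1.02, -1.08 to -0.95), and Insig1 was lower too (-1.03, -1.10 to -0.97). Adipocyte genes were lower in 6 of 7 (summed level 6271 TPM on low and 2623 on high sitosterol), the adrenal cortex genes in 0 of 8 (median 0.08) and 4 of 9 analysed macrophage genes were higher. Of 8 lipid-associated macrophage genes 1 was higher and 3 lower, and 4 of 4 analysed neutrophil genes were higher (71.0 TPM on high and 17.2 on low sitosterol). Their part in the members' ratios was not tested. Set beside the same contrast in liver, Hsd17b7 differed most (-1.39 in liver, -0.08 in adrenal, a difference of -1.31), followed by Nsdhl (-0.87), and Msmo1 (0.16) and Lss (0.24) were lower by more in the adrenal. These differences between tissues were not tested. They set livers with Y-linked counts (2490 on low and 2598 on high sitosterol) against adrenals with almost none (3 and 5).

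Genes with a liver profile most like the mean of the 6 members were ranked among 8821 others by the root-mean-square difference of log2 scaled CPM, centred on each gene's mean, over 4 livers. The nearest were Ero1lb (0.03), Leap2 (0.09), Slc25a45 (0.10), Slc25a21 (0.10), Khk (0.11), Hao1 (0.12), Lifr (0.12), Aadat (0.12), Il15ra (0.12) and Aadac (0.15), against a median of 0.67 for all 8821. Ero1lb, an oxidase of the endoplasmic reticulum, was at 98.9 scaled CPM on low sitosterol, 49.3 on high sitosterol, 64.8 on ergosterol and 27.7 on stigmasterol. Khk, the fructose kinase, was at 996, 573, 726 and 285. None of the 10 belonged to cholesterol synthesis, and none stayed among the nearest 10 when TPM of all 6 libraries was used, where Idi1, an enzyme before squalene, ranked 4. Over the 4 livers Idi1 ranked 20 (0.17). Of the members, Cyp51 lay nearest to their mean (0.11) and Hsd17b7 (0.45) and Sqle (0.41) farthest, and 1055 other genes were nearer than Hsd17b7. With 4 libraries such likeness says little about one gene.

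**Figure D5:**
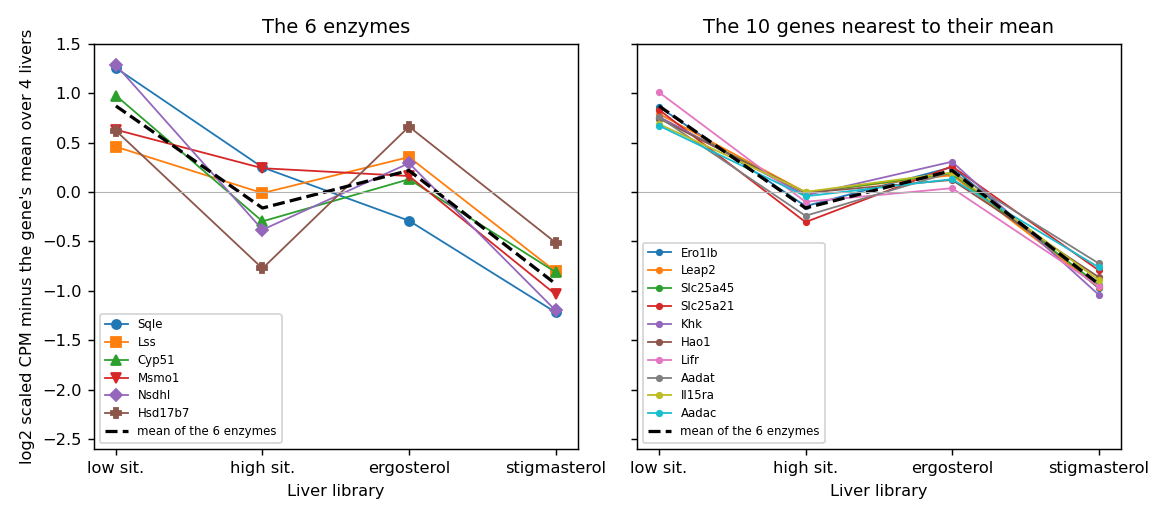
Log2 scaled CPM of each gene minus its mean over the 4 livers (vertical axis) by liver library, for the 6 enzymes (left) and the 10 genes nearest to their mean (right); the dashed line is the mean of the 6, at 0.87, -0.16, 0.22 and -0.93. Hsd17b7 is lowest on high sitosterol and Sqle goes down from library to library.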

How the data were processed

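RNA was sequenced from 4 livers and 2 adrenals, 1 library per group. The labels' protocols name a Qiagen RNeasy extraction and a TruSeq v2 library kit, which does not mark strand. The authors deposited estimated counts per gene symbol (not whole, beyond 0.01, for 45.9% to 51.4% of genes with counts) and TPM values. Per the submitters' processing notes the build was mm10 and the tools included kallisto 0.43.1, HISAT2 2.0.5 and Trimmomatic 0.33, without role; annotation and filters are not given in the sources used here. Reads of a member and of a pseudogene copy could be split by such counting. One row that names no gene, with 0% of counts, was left out.

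Estimated counts were rounded and scaled by TMM within tissue (edgeR 4.0.16, R 4.3.3). A gene was analysed where any library of its tissue reached 1 CPM, and all 6 members were. Log2 ratios used a prior count of 0.5, with exact 95% intervals for counting error only. These treat each rounded count as an independent molecule. PCR copies are not independent molecules, and error in the estimated counts lies outside the intervals, so that they can be too narrow. A count of 0 allows up to 0.0593 to 0.0722 CPM (3 counts). There is no test with 1 library per group. Ratios were repeated with library totals, DESeq2 1.42.0 size factors, upper quartile, centring on hepatocyte genes, TPM with pseudocounts of 0.1 and 1, other prior counts, filters and folds. Gene positions are from GENCODE M21 (GRCm38, the mm10 build), promoters from RefSeq. Named genes were the members, genes of the pathway lists past the 2-fold limit or with the 4 largest ratios, the 10 nearest profiles, and a few partners singled out after their values were seen (Por, March6, Srebf2 and, where not past the limit, Lbr and Insig1). Some genes of the lists are not reported here and were left out of the list counts. The members and lists were chosen with earlier results of these data known.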

Additional observations from a re-analysis of the deposited data

Results flagged for a closer look

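The contrast of high against low sitosterol was set side by side in liver and adrenal, by scaled CPM. Among the listed pathway and control genes, 4 stood on opposite sides of equality, each beyond counting error. None of the 6 enzymes did. Insig1 was at 0.43 in liver and -1.03 in adrenal, a difference of 1.46 on the log2 scale. Smaller differences were found for Dhcr7 (-0.35, from -0.31 in liver and 0.04 in adrenal), Scap (-0.50, from -0.25 and 0.25) and Ube2j2 (-0.53, from -0.16 and 0.36). Opposite sides for these smaller differences rest on the scaling. By TPM, from low to high sitosterol, Scap rose in liver (24.8 to 26.2) and in adrenal (60.5 to 78.4). Ube2j2 also rose in both (29.3 to 34.4 and 62.7 to 85.4), and Dhcr7 fell slightly in both (25.4 to 25.2 and 806 to 794). Insig1 kept opposite sides by TPM (74.2 to 120 in liver, 78.7 to 38.1 in adrenal). With 1 library per group the difference was not tested.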

How the results depend on the processing

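DESeq2 size factors and a prior count of 2 left all 42 member ratios within their counting intervals, and upper quartile scaling left 39. Library totals and both TPM scales moved 30, 34 and 34 of 42 beyond their intervals, and hepatocyte centring 30 of 36; no called member changed sign. Uncalled ratios that did were Lss on ergosterol against low sitosterol (0.06 on library totals, 0.17 hepatocyte-centred, 0.05 on both TPM scales), Hsd17b7 there (-0.01, upper quartile) and Cyp51 on stigmasterol against high sitosterol (0.16 hepatocyte-centred, 0.14 and 0.13 on the TPM scales). Members lower on high against low sitosterol in liver numbered 4 with TMM, 3 with DESeq2 size factors, upper quartile, library totals and hepatocyte-centred (Sqle falling short), 2 with log2(TPM + 0.1) and 1 with log2(TPM + 1). In the same order 4.3%, 4.18%, 4.05%, 3.13%, 2.91%, 2.24% and 1.07% of all genes were lower. On ergosterol against low sitosterol, 1 became 2 with upper quartile (6.47% of genes lower) and 3 at 1.5-fold (12.5% of genes lower). On stigmasterol against low sitosterol, 6 (7.78% of genes lower) became 3 on library totals (3% of genes). The count was 2 hepatocyte-centred (2.48% of genes) or on either TPM scale (2.31% and 1.69%). In adrenal 0 became 4 at 1.5-fold (7.16% of genes). On stigmasterol against high sitosterol, 2 became 0 on library totals, hepatocyte-centred and on both TPM scales (2.59%, 2.13%, 2.13% and 1.41% of genes), and 4 at 1.5-fold (12.8% of genes). For members higher, ergosterol against high sitosterol went from 1 to 2 at 1.5-fold (15.7% of genes higher). Ergosterol against stigmasterol went from 4 to 0 on library totals, hepatocyte-centred and on both TPM scales (3.18%, 2.26%, 3.06% and 2.02% of genes higher). Over all genes, calls on stigmasterol against low sitosterol went from 2903 higher and 1041 lower (73.6% higher) to 5285 and 401 (92.95%) on library totals, 6288 and 332 hepatocyte-centred and 6193 and 309 with log2(TPM + 0.1). The same scalings gave 1518 and 419 (78.4% higher, from 66.9%), 1648 and 389, and 1365 and 299 for high sitosterol in place of 1163 and 575. For ergosterol they gave 1139 and 610 (65.1%, from 51.0%), 1442 and 516, and 1567 and 339 in place of 810 and 779. For the pathway lists, chosen for repetition after seeing the data, enzymes before squalene called lower ranged over the 6 other scalings from 1 to 4 on high sitosterol, 0 to 1 on ergosterol and 2 to 6 on stigmasterol. Over the same scalings 1.07% to 4.18%, 1.33% to 6.47% and 1.69% to 9.04% of all genes were lower. No paired analysis was possible because each group has 1 library. No library could be left out for the same reason. The cause of these shifts was not tested.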
